A study of Danio rerio with 8 samples.

Results

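The genes described here are those with which the liver makes new fatty acids, and the factors that switch those genes on. They were chosen by symbol: the enzymes fasn, acaca, acacb, acly, scd, scdb, elovl6 and me1, and the transcription factors srebf1 and mlxipl. All 10 symbols were found, on 11 of the 32520 Ensembl gene identifiers counted, because acly stood on 2 identifiers, ENSDARG00000099079 and ENSDARG00000055652. The level of the genes was not used to choose them, although earlier results of these data were known when they were chosen.

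Liver RNA of 8 female zebrafish was sequenced, 1 library per fish, 4 of them raised on a diet based on whole egg (Whole Egg) and 4 on a control diet (Control). All fish were on their diet from day 21 after fertilization until the livers were taken at 36 weeks of age. In the Whole Egg diet about 50% of the protein came from dried whole egg, which also raised the fat content of the feed, and the Control diet drew its protein from several sources, among them casein and fish protein. The strain, any mutation, the tank of each fish and the time between the last meal and dissection are not given in the sources used here. Whole livers were used, and fish are named by diet and number (Whole Egg-1 to Whole Egg-4, Control-1 to Control-4). The p-values measure the spread between these fish.

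In the cytosol, citrate is cut to acetyl-CoA, acetyl-CoA is carboxylated to malonyl-CoA, and fatty acid synthase joins these units into palmitate with electrons from NADPH. Palmitate is then elongated and desaturated before it is stored as triglyceride. In the liver of mammals the genes of this pathway are known to be switched on together after a carbohydrate-rich meal, by SREBP-1c (from srebf1) under insulin and by ChREBP (from mlxipl) under glucose.

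The gene counts of a fish added up to between 16916307 and 35871236, and the median fish had 20415771.5 in Whole Egg and 22417387.5 in Control. Levels are given as CPM, counts scaled to a common library size after normalization by the trimmed mean of M-values (TMM), and they compare fish, not genes of different length. The 10 strongest genes held 64.9% (Whole Egg-2) to 76.0% (Control-1) of the counts of a fish. The TMM factor ran from 0.682 in Control-4 to 1.72 in Whole Egg-2. A larger factor lowers CPM, so the low liver sum of Whole Egg-2 given below rests in part on its factor. The liver markers were at hand in every fish, and 2 fish stood apart in markers of other tissues. In Whole Egg-2 the 13 liver markers summed to 12540 CPM, against 28417 to 38711 CPM in the other Whole Egg fish and 28599 to 43610 CPM in Control fish, and 19 ovary markers summed to 978 CPM, against 7.13 to 113 CPM in the other Whole Egg fish and 7.29 to 72.1 CPM in Control fish. In Control-2 the intestine markers were high: of the 13, apoa4b.1 was abundant in every fish (68.1 to 232 CPM in Whole Egg and 126 to 264 CPM in Control), and the other 12 summed to 9.51 to 22.4 CPM in Whole Egg fish and, in Control, to 246 CPM in Control-2 and 9.90 to 18.1 CPM in the other fish. Among them the chitinase chia.2 had at most 4.40 CPM in Whole Egg fish, against 99.2 CPM in Control-2, and the microvillus gene vil1 had at most 0.663 CPM in Whole Egg fish, against 19.2 CPM in Control-2. The split of the intestine list was made after its values were seen. Results are also given without Control-2 or Whole Egg-2 where leaving it out changed a direction. Of the adipose tissue markers, lepa had 0 counts in all fish and plin1 had 0.234 CPM or less. Others were expressed, and cidec had 3.57 to 8.40 CPM in Whole Egg and 7.15 to 8.62 CPM in Control. The level of pparg was 5.91 to 7.09 CPM in Whole Egg and 6.59 to 11.5 CPM in Control. That of cfd was 0.673 to 3.63 CPM in Whole Egg and 2.42 to 4.44 CPM in Control. The summed adipose list ran from 164 to 594 CPM in Whole Egg and 326 to 486 CPM in Control. Nearly all of it was lpl (153 to 575 CPM in Whole Egg and 306 to 464 CPM in Control). Markers of red blood cells summed to 42.7 to 92.4 CPM in Whole Egg and 50.7 to 78.9 CPM in Control, and those of immune cells to 14.3 to 23.0 CPM in Whole Egg and 19.3 to 29.4 CPM in Control.

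No fatty acid synthesis gene passed the test between the diets. Of the 11 identifiers, 9 had enough counts to be tested, and edgeR's quasi-likelihood test called 0 of the 9 at an adjusted p under 0.1, where it called 0% of the 13379 genes tested. At an unadjusted p under 0.05 it called 0 of the 9, against 3.9% of all genes, and DESeq2 called 0 of the 7 to which it gave a p-value at either threshold, against 0% and 6.44% of all genes. The levels of the diets overlapped in every one of the 9, and did not overlap in 2.14% of all genes (1.01% higher and 1.13% lower in Whole Egg). The log2 fold change of Whole Egg over Control was positive for 2 genes (0 with upper quartile scaling) and negative for 7, with a median of −0.48, against 0.04 over all genes tested. These counts depended on single fish: without Control-2 it was positive for 8 of the 10 identifiers then tested, and without Whole Egg-2 for 4 of 9. In the study's sets of 6 fish it was positive for 8 of 9 without Control-2 and Whole Egg-2. Without Control-4 and Whole Egg-1 it was positive for 1 of 10. The spread between fish of the same diet was large for fasn, acaca, scd and elovl6, and in each of these genes Control-2 and Whole Egg-1 were the highest fish of their diets.

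Fatty acid synthase, fasn (ENSDARG00000087657), which builds palmitate, had 1681, 82.8, 258 and 27.8 CPM in Whole Egg-1 to Whole Egg-4, against 88.6, 3422, 50.7 and 78.4 CPM in Control-1 to Control-4. Control-2 was 38.6-fold above the next Control fish and Whole Egg-1 was 6.53-fold above the next Whole Egg fish, while the highest of all 8 fish was 123-fold above the lowest, Whole Egg-4. The diets overlapped almost entirely, and the mean was 512 ± 785 CPM in Whole Egg and 909.9 ± 1675 CPM in Control (SD, n = 4 each). The log2 fold change was −0.83 with a standard error of 1.57 and an adjusted p of 0.904 (edgeR). An exact two-sided permutation test of the mean log2 CPM gave p = 0.971, where 4 fish against 4 can give no p below 0.0286. In bulk liver, fewer cells that express a gene and less RNA per cell cannot be told apart.

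The sign of this difference depended on those fish. Without Control-2 the log2 fold change of fasn was 2.86, higher in Whole Egg, and without Whole Egg-1 it was −2.90, lower in Whole Egg, with adjusted p of 0.869 and 0.604 in edgeR. The study itself also compared sets of 6 fish, and each set lacked one of these fish. With Control-2 and Whole Egg-2 left out the log2 fold change of fasn was 3.18 (unadjusted p = 0.0324 and adjusted p = 0.999 in edgeR), and with Control-4 and Whole Egg-1 left out it was −3.28 (unadjusted p = 0.0861 and adjusted p = 0.689 in edgeR). The sign in either set followed the diet of the high fish that stayed in.

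**Figure D1:**
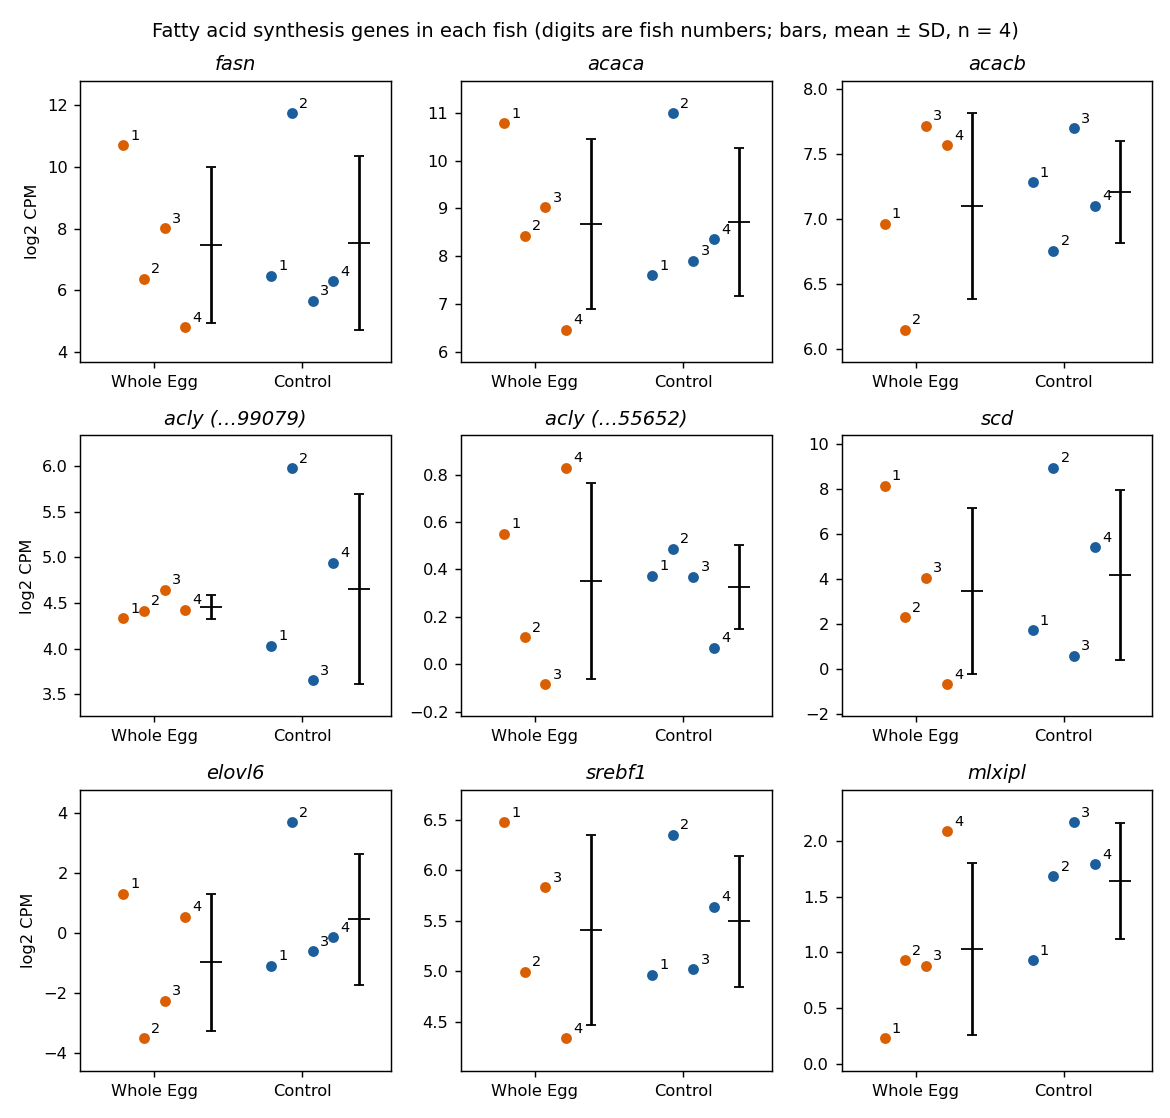
Level of the 9 tested identifiers in each fish, as log2 CPM with a prior count of 2 (vertical axis, a separate scale for each gene), Whole Egg in orange on the left and Control in blue on the right, digits giving the fish number and bars the mean ± SD of 4 fish. Fish 1 of Whole Egg and fish 2 of Control stand above the others in fasn, acaca and scd, while in acacb, mlxipl and the weak acly identifier they do not.

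The step before fatty acid synthase, the making of malonyl-CoA, is carried out by acetyl-CoA carboxylase, of which the livers expressed 2 genes. In mammals the product of ACACA feeds synthesis in the cytosol. The gene acaca (ENSDARG00000078512) had 1761, 345, 521 and 88.2 CPM in Whole Egg-1 to Whole Egg-4, against 195, 2034, 239 and 329 CPM in Control-1 to Control-4. Again Control-2 and Whole Egg-1 were the highest fish and Whole Egg-4 the lowest, over a 23.0-fold range, and the diets overlapped. The mean was 679 ± 743 CPM in Whole Egg and 699 ± 891 CPM in Control (SD, n = 4 each), with a log2 fold change of −0.04 (SE 0.98, adjusted p = 0.992 in edgeR). The log2 fold change was 1.45 without Control-2, −1.14 without Whole Egg-1 and 0.19 without Whole Egg-2.

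The product of ACACB lies at the mitochondrion in mammals, where its malonyl-CoA restrains the uptake of fatty acids for oxidation. The gene acacb (ENSDARG00000061994) had 125, 70.9, 211 and 190 CPM in Whole Egg-1 to Whole Egg-4, against 156, 108, 208 and 138 CPM in Control-1 to Control-4. It spanned only 2.98-fold, with Whole Egg-3 and Control-3 highest and Whole Egg-2 lowest, and Control-2 was the lowest of the Control fish. The diets overlapped, and the log2 fold change was −0.03 (SE 0.36, adjusted p = 0.986 in edgeR). Without Whole Egg-2 it was 0.21.

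The balance of the 2 carboxylase genes also differed between fish of one diet. The ratio of acaca to acacb counts was 14.1, 4.87, 2.47 and 0.465 in Whole Egg-1 to Whole Egg-4, against 1.25, 18.8, 1.15 and 2.39 in Control-1 to Control-4. Gene length scales this ratio by the same factor in every fish, so it compares fish only. Control-2 and Whole Egg-1 had the highest ratios and Whole Egg-4 the lowest.

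ATP citrate lyase, which cuts citrate to acetyl-CoA, was counted mainly on ENSDARG00000099079. That identifier had 20.1, 21.2, 24.9 and 21.4 CPM in Whole Egg-1 to Whole Egg-4, against 16.3, 62.9, 12.5 and 30.6 CPM in Control-1 to Control-4. The 4 Whole Egg fish lay within 1.24-fold of each other, inside the range of the Control fish, and Whole Egg-1 was the lowest of them. Control-2 was the highest fish. The mean was 21.9 ± 2.08 CPM in Whole Egg and 30.6 ± 23.0 CPM in Control (SD, n = 4 each), with a log2 fold change of −0.48 (SE 0.46, adjusted p = 0.840 in edgeR), and without Control-2 the log2 fold change was 0.16. The other identifier, ENSDARG00000055652, had 0.856 to 1.69 CPM in Whole Egg fish and 0.962 to 1.31 CPM in Control fish, with a log2 fold change of 0.05 (SE 0.31, adjusted p = 0.971 in edgeR). Reads shared by near-identical genes were not counted, so the split between the 2 acly identifiers, and between scd and scdb, is uncertain.

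The widest range of all belonged to scd (ENSDARG00000033662), the desaturase that turns stearate into oleate. It had 286, 4.83, 16.7 and 0.542 CPM in Whole Egg-1 to Whole Egg-4, against 3.24, 492, 1.43 and 43.0 CPM in Control-1 to Control-4. Control-2 and Whole Egg-1 were again highest, and Control-2, with 10860 counts, was 907-fold above Whole Egg-4, with 9 counts. The mean was 77.0 ± 139 CPM in Whole Egg and 135 ± 239 CPM in Control (SD, n = 4 each), and the log2 fold change of −0.81 had a standard error of 1.90 (adjusted p = 0.922 in edgeR). It was 2.33 without Control-2 and −4.20 without Whole Egg-1, with adjusted p of 0.869 and 0.550 in edgeR. For fasn and scd DESeq2 gave log2 fold changes of −0.82 and −0.80 but no p-value, and the reason was not examined. The paralog of scd, scdb (ENSDARG00000030265), was not tested, since it had 0 to 3 counts in every fish of either diet, and 4 fish had 0, which allows up to 3 counts in each.

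The elongase elovl6 (ENSDARG00000004402), which extends palmitate to stearate, was low in every fish but 1. It had 2.41, 0, 0.122 and 1.39 CPM in Whole Egg-1 to Whole Egg-4, against 0.385, 12.9, 0.570 and 0.825 CPM in Control-1 to Control-4. Control-2 held 285 counts of it, against 49 in Whole Egg-1 and 0 in Whole Egg-2, and Control-2 was at least 147-fold higher than Whole Egg-2, at a floor of 3 counts in that library. The diets overlapped, and the log2 fold change was −1.95 (SE 1.44, adjusted p = 0.818 in edgeR), or 0.72 without Control-2. Malic enzyme, me1 (ENSDARG00000053215), a source of NADPH in the cytosol, was too low to test, with 3 to 43 counts in Whole Egg fish and 3 to 22 counts in Control fish. Its level was 0.148, 1.26, 0.367 and 0.723 CPM in Whole Egg-1 to Whole Egg-4, against 0.165, 0.363, 0.697 and 0.412 CPM in Control-1 to Control-4, so the fish high in fasn were not high in me1.

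Of the transcription factors, srebf1 (ENSDARG00000067607) followed the same fish over a smaller range. It had 88.7, 31.9, 56.8 and 20.1 CPM in Whole Egg-1 to Whole Egg-4, against 31.2, 81.6, 32.5 and 49.7 CPM in Control-1 to Control-4. Whole Egg-1 and Control-2 were the highest fish of their diets and Whole Egg-4 the lowest of all, over 4.41-fold. The mean was 49.4 ± 30.4 CPM in Whole Egg and 48.7 ± 23.5 CPM in Control (SD, n = 4 each), with a log2 fold change of 0.02 (SE 0.49, adjusted p = 0.993 in edgeR), and it was 0.41 without Control-2 and −0.43 without Whole Egg-1.

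The glucose-responsive factor mlxipl (ENSDARG00000104054) did not follow those fish. It had 1.08, 1.81, 1.75 and 4.16 CPM in Whole Egg-1 to Whole Egg-4, against 1.81, 3.13, 4.40 and 3.37 CPM in Control-1 to Control-4. Whole Egg-1 had the lowest level of all 8 fish. The median was 1.78 CPM in Whole Egg and 3.25 CPM in Control, with an SD of 1.35 and 1.06 CPM (n = 4 each) and a log2 fold change of −0.54 (SE 0.44, adjusted p = 0.825 in edgeR). It kept its sign when any 1 fish was left out, between −1.04 without Whole Egg-4 and −0.33 without Whole Egg-1, with adjusted p no lower than 0.487. Without Whole Egg-4 the unadjusted p was 0.0230 in edgeR.

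**Figure D2:**
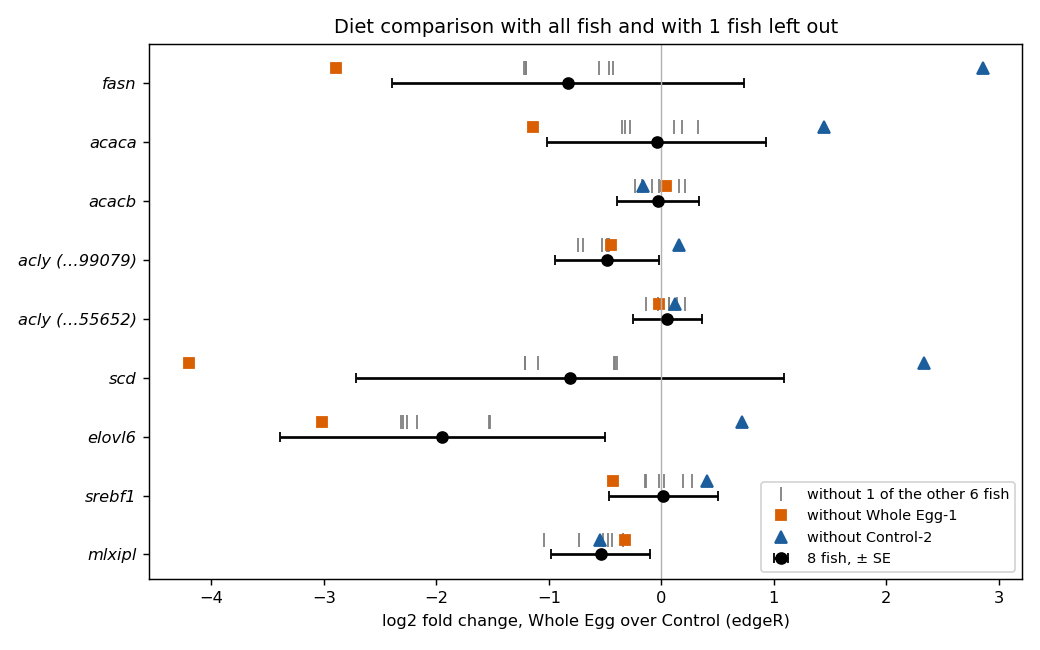
log2 fold change of Whole Egg over Control from edgeR (horizontal axis) for each of the 9 tested identifiers (rows): black circles with bars of ± SE for all 8 fish, an orange square without Whole Egg-1, a blue triangle without Control-2 and grey ticks without each of the other 6 fish. For fasn the square lies at −2.90 and the triangle at 2.86, and acaca, scd, elovl6 and srebf1 also change sign between them, while mlxipl stays below 0 throughout.

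The spread between fish of one diet was uneven among the 9 identifiers. The SD of log2 CPM within diets had a median of 0.80, against 0.48 over all genes tested, and it ran from 0.32 for the weak acly identifier to 3.74 for scd. Among the 13379 genes tested, scd had the SD of rank 2 and fasn that of rank 18, with values of 3.74 and 2.68. The SD was 2.24 for elovl6 and 1.67 for acaca, of rank 143 and 530. The other 5 identifiers had an SD between 0.32 and 0.80.

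The genes fasn, acaca, scd and srebf1 varied together across the 8 fish. The Whole Egg fish had the same order in all of these genes. The Control fish shared only the highest, Control-2. Below it, Control-1 was highest in fasn, and Control-4 in acaca, scd and srebf1. No correlation was computed within a diet. Over the 8 fish, log2 CPM of fasn was related to that of acaca (r = 0.97, exact permutation p = 0.000422, adjusted p = 0.00337 over 8 relations), of srebf1 (r = 0.92, exact permutation p = 0.000893, adjusted p = 0.00357) and of scd (r = 0.92, exact permutation p = 0.00146, adjusted p = 0.0039). Spearman's rho was 0.86 for acaca, 0.83 for scd and 0.76 for srebf1, with exact permutation p of 0.0107, 0.0154 and 0.0368, and adjusted p of 0.0615, 0.0615 and 0.0917. Control-2 and Whole Egg-1 are the 2 fish farthest from the median of fasn, and in the other 6 fish r was 0.87 for acaca, 0.85 for srebf1 and 0.71 for scd, with exact permutation p of 0.0361, 0.0417 and 0.0972. After adjustment these were 0.0833, 0.0833 and 0.156, so none of the relations passed 0.05 in those 6 fish, and they rest in part on the 2 high fish. Without Control-2 alone r was 0.95 for acaca, 0.92 for srebf1 and 0.88 for scd, with adjusted p of 0.00873, 0.00952 and 0.0139 by exact permutation, and all 3 also passed when any other single fish was left out. By Spearman's rho none passed after adjustment in the 8 fish. Whole Egg-4, the lowest fish in fasn, was also the lowest in acaca, scd and srebf1.

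The other relations with fasn did not pass. The main acly identifier had r = 0.63 and rho = 0.31 (exact permutation p = 0.0895 and 0.462, adjusted p = 0.171 and 0.613), and elovl6 had r = 0.62 and rho = 0.26 (exact permutation p = 0.107 and 0.536, adjusted p = 0.171 and 0.613). Without Control-2 and Whole Egg-1 these r were 0.32 and −0.63, so that of elovl6 rested on those fish. For mlxipl r was −0.46 and rho −0.74 (exact permutation p = 0.261 and 0.0458, adjusted p = 0.348 and 0.0917). In the 6 fish its r was −0.77 (exact permutation p = 0.0139, adjusted p = 0.0833) and its rho −0.94 (exact permutation p = 0.0167). That p of r was the smallest of all relations in the 6 fish, and it did not pass after adjustment. For acacb r was −0.33 and rho −0.38 (exact permutation p = 0.423 and 0.3599, adjusted p = 0.483 and 0.576), with r = −0.0098 in the 6 fish and −0.73 without Whole Egg-2. The weak acly identifier had r = 0.05 and rho = 0 (exact permutation p = 0.899 and 1, adjusted p = 0.899 and 1), and r was −0.88 in the 6 fish, −0.13 without Control-2 and −0.0065 without Whole Egg-2.

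**Figure D3:**
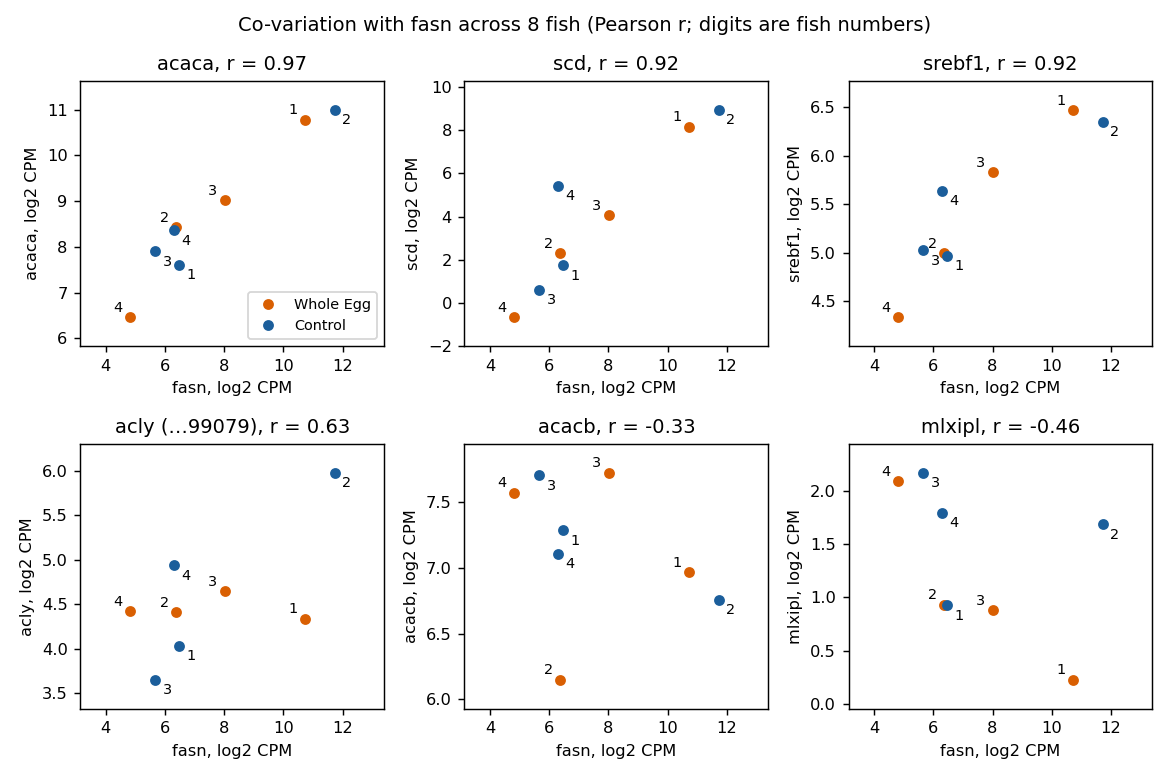
Level of 6 genes (vertical axes) against that of fasn (horizontal axes) in the 8 fish, both as log2 CPM, with Whole Egg in orange and Control in blue, digits giving the fish number and r above each panel. In acaca (r = 0.97), scd and srebf1 (r = 0.92 each) the level rises from Whole Egg-4 to Control-2 and Whole Egg-1. In acacb (r = −0.33) and mlxipl (r = −0.46) it does not. By rank mlxipl tends to fall as fasn rises (Spearman's rho −0.74), with Control-2 apart.

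Among the 36 pairs of the 9 identifiers the median r was 0.25, against −0.0038 over all pairs of genes tested. The 6 pairs with r of at least 0.8 were the pairs among fasn, acaca, scd and srebf1. The share of all gene pairs at that level was not counted. For relations with fasn alone, 3 of the 8 other identifiers reached it, against 1.70% of all genes tested. The set did not move as 1 block. With Control-2 and Whole Egg-1 left out the median r over its pairs was −0.03, against −0.0028 over all pairs of genes tested. In those 6 fish r still lay between 0.71 and 0.91 among fasn, acaca, scd and srebf1. Other pairs turned negative, such as fasn with elovl6 (r = 0.62 in the 8 fish and −0.63 in the 6). For acaca with the weak acly identifier, which had only 14 to 38 counts, r was −0.11 in the 8 fish and −0.99 in the 6.

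Genes of the neighbouring pathways were followed in the same way, by lists. None of their genes was called between the diets at an adjusted p under 0.1 in edgeR. At an unadjusted p under 0.05, 1 of the 85 genes tested was higher in Whole Egg and 3 were lower, against 2.54% and 1.36% of all genes tested. Of the 23 upstream regulators tested, only gck, glucokinase, which traps glucose in the hepatocyte, was among them. It had 216, 6.03, 0.815 and 14.2 CPM in Whole Egg-1 to Whole Egg-4, against 1.21, 3.08, 5.45 and 1.79 CPM in Control-1 to Control-4. Whole Egg-1 stood far above all other fish and Whole Egg-3 was the lowest of all, so the diets overlapped, and the log2 fold change was 4.34 (SE 1.48, unadjusted p = 0.0164 and adjusted p = 0.810 in edgeR), or 1.25 without Whole Egg-1. DESeq2 gave no p-value for gck. Control-2, the fish highest in fasn, was not high in gck.

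The list of elongation and desaturation held no desaturase, because its symbol fads2 had no match. Of its 12 genes tested, 2 were lower in Whole Egg at the unadjusted threshold. The gene elovl5, an elongase of polyunsaturated fatty acids, had 52.5, 21.0, 26.8 and 40.0 CPM in Whole Egg-1 to Whole Egg-4, against 61.3, 66.9, 62.4 and 44.3 CPM in Control-1 to Control-4, with a log2 fold change of −0.74 (SE 0.31, unadjusted p = 0.0391 and adjusted p = 0.810 in edgeR). The study called elovl5 lower in Whole Egg without Control-4 and Whole Egg-1, and saw a similar trend by RT-PCR in the same females. With more females, and in males, its RT-PCR found no difference between these diets. The reductase hsd17b12b, a step of the elongation cycle, had 24.4, 12.8, 18.6 and 11.3 CPM in Whole Egg-1 to Whole Egg-4, against 28.5, 41.6, 20.7 and 24.5 CPM in Control-1 to Control-4, with a log2 fold change of −0.78 (SE 0.32, unadjusted p = 0.0362 and adjusted p = 0.810 in edgeR). In both genes Whole Egg-1 alone reached into the Control range, and neither passed after adjustment. With 1 fish left out the unadjusted p was 0.05 or above in 6 of 8 fits for elovl5 (highest 0.116) and in 5 of 8 for hsd17b12b (highest 0.134, without Control-2). Of the 13 genes of triglyceride assembly tested, dgat1b, which carries out the last step, had 6.59, 4.16, 6.32 and 5.91 CPM in Whole Egg-1 to Whole Egg-4, against 7.64, 7.30, 10.3 and 7.70 CPM in Control-1 to Control-4. Its diets did not overlap, as for 1.13% of all genes in that direction, and the log2 fold change was −0.52 (SE 0.23, unadjusted p = 0.0469 and adjusted p = 0.810 in edgeR). Its unadjusted p was 0.05 or above in 7 of the 8 fits with 1 fish left out (highest 0.149) and was 0.0636 with counts taken without regard to strand.

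In the remaining lists no gene passed even without adjustment. The smallest unadjusted p in edgeR was 0.151 for slc25a1a, a carrier of citrate out of the mitochondrion (log2 fold change 1.12, SE 0.72, 10 genes tested for citrate and acetyl-CoA supply). It was 0.111 for idh1, an isocitrate dehydrogenase that yields NADPH (−0.54, SE 0.31, 7 genes tested for NADPH supply), and 0.218 for cbr4, a reductase of fatty acid synthesis in the mitochondrion (−0.41, SE 0.31, 7 genes tested). The level of slc25a1a was low, with 0.492 to 4.77 CPM in Whole Egg and 0.380 to 2.13 CPM in Control. The citrate carrier entry slc25a1 had 24.8 to 64.7 CPM in Whole Egg and 43.0 to 63.9 CPM in Control. Its log2 fold change was −0.08 (SE 0.30, unadjusted p = 0.793 in edgeR). The median log2 fold change of the 7 lists lay between −0.29 for fatty acid oxidation and −0.03 for the upstream regulators, against 0.04 over all genes tested.

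Across fish, genes of the NADPH supply followed fasn most. These correlations are descriptions over the same 8 livers, which share library and depth within a fish, and they carry no test. The oxidative pentose phosphate pathway is known to supply NADPH to fatty acid synthase, and its enzymes pgd and pgls had r of 0.95 and 0.83 with fasn, where 1.70% of all genes had an r of at least 0.8. The median r over the 7 genes tested was 0.72, against −0.03 over all genes. Levels of pgd were 15.1, 6.73, 6.402 and 2.95 CPM in Whole Egg-1 to Whole Egg-4, against 4.12, 14.1, 3.64 and 3.64 CPM in Control-1 to Control-4. Whole Egg-1 and Control-2 were the highest fish and Whole Egg-4 the lowest, as in fasn, over a narrower range. With Control-2 and Whole Egg-1 left out the r of pgd was 0.78 and that of pgls 0.39, and the median of the list was 0.24.

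In the other lists few genes did so. Triglyceride assembly had a median r of 0.43, with 1 of 13 genes at 0.8 or more (acsl5, which activates long-chain fatty acids, r = 0.87). Of the 23 upstream regulators, mbtps1, the protease that begins the release of SREBP from the membrane, had r = 0.90, and mid1ip1b, whose mammalian counterpart binds acetyl-CoA carboxylase, had r = 0.81, with a median of 0.11 over the list. The medians were 0.34 for mitochondrial fatty acid synthesis, 0.30 for elongation and desaturation and 0.06 for citrate and acetyl-CoA supply, with 0 genes at 0.8 or more in each. With Control-2 and Whole Egg-1 left out, r was 0.44 for acsl5, 0.47 for mid1ip1b and 0.95 for mbtps1, and the median was 0.086 for triglyceride assembly and −0.12 for the upstream regulators. Over the 8 fish, fatty acid oxidation had the only negative median, −0.26, and its gene hadhaa, a subunit of the mitochondrial trifunctional protein, had r = −0.86.

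**Figure D4:**
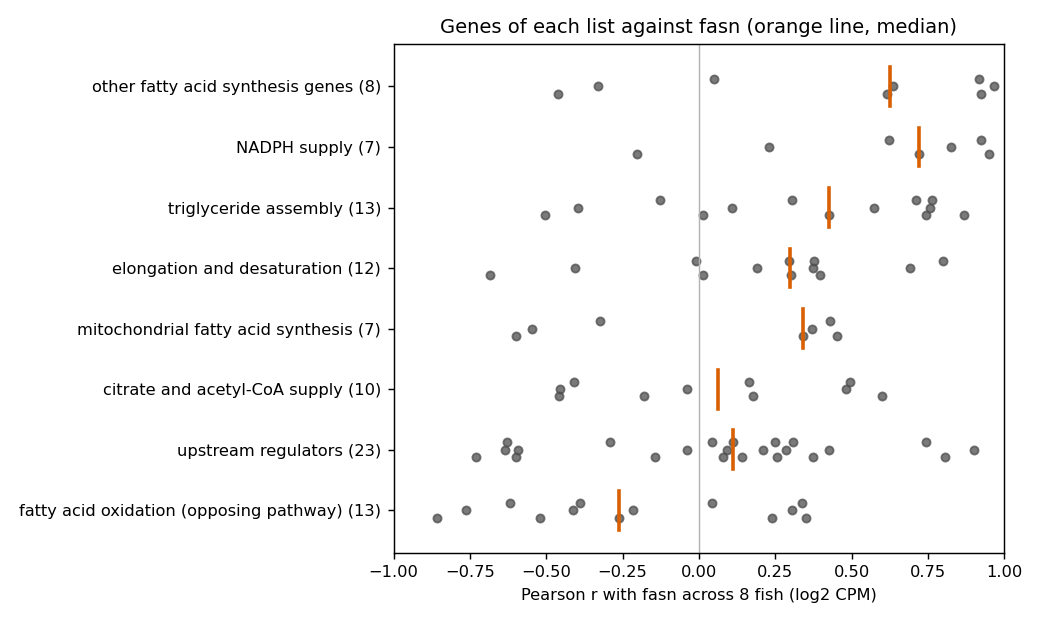
Pearson r with fasn across the 8 fish (horizontal axis, log2 CPM) of every tested gene (grey points) of the other fatty acid synthesis genes and of 7 lists (rows, with the number of genes), and the median of each as an orange line. The NADPH supply has the highest median, 0.72, and fatty acid oxidation the lowest, −0.26. The row named elongation and desaturation holds no desaturase.

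The genes most like fasn over the 8 fish, among those with a mean of at least 10 CPM, were strn3 (r = 0.98), a scaffold protein of the striatin family, aacs (r = 0.98), got2a (r = 0.98), a mitochondrial aspartate aminotransferase, acsbg2 (r = 0.97), an acyl-CoA synthetase, and acaca. The gene aacs, which encodes the cytosolic enzyme that activates acetoacetate for lipid synthesis, had 85.1, 6.79, 10.4 and 0.964 CPM in Whole Egg-1 to Whole Egg-4, against 2.58, 238, 2.41 and 5.16 CPM in Control-1 to Control-4. It thus repeated the order of the high fish and the lowest, over a wider range than fasn. The lowest r belonged to ppp2ca, a catalytic subunit of protein phosphatase 2A (r = −0.91), ambra1, a regulator of autophagy (r = −0.91), and baiap2l1, an adaptor of the actin cytoskeleton (r = −0.90). Without Control-2 and Whole Egg-1 these were −0.73, −0.55 and −0.69, and strn3, aacs, got2a and acsbg2 had 0.91, 0.89, 0.90 and 0.86. Some ranges were narrow: over the 8 fish strn3 had 9.88 to 24.7 CPM and ppp2ca 11.1 to 17.4 CPM. All these genes were picked as extremes of r, which carries no test here.

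**Figure D5:**
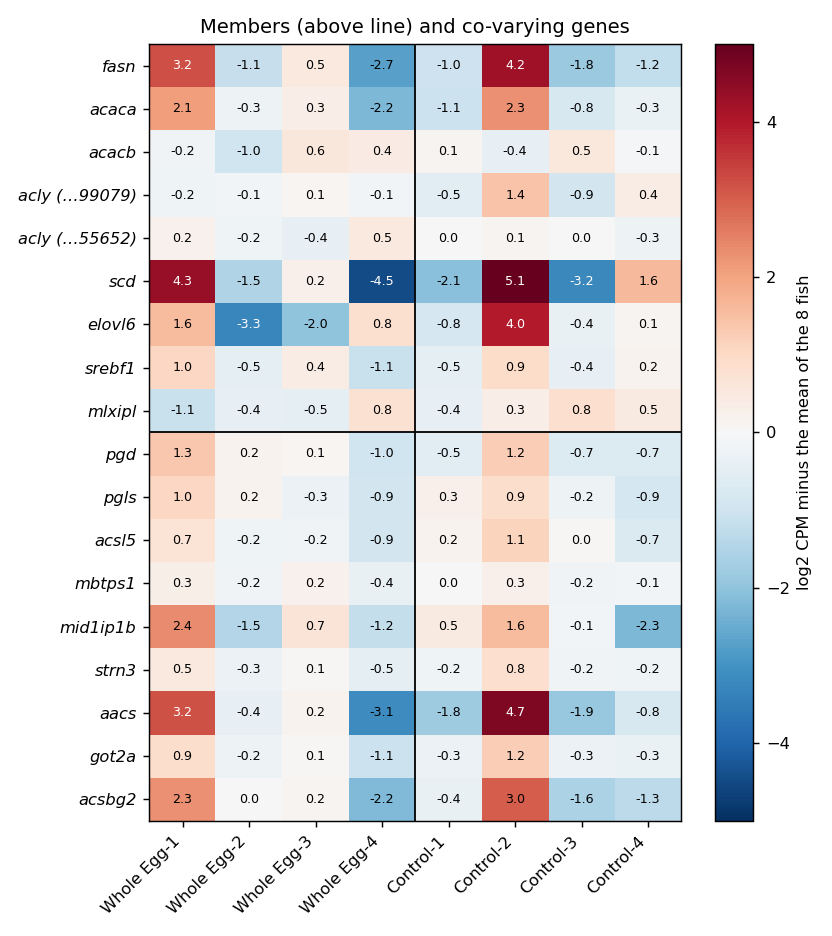
log2 CPM of 18 genes (rows; the 9 tested fatty acid synthesis identifiers above the line, and list genes with r of at least 0.8 that the text names and the genes most like fasn below it) in each fish (columns, Whole Egg left and Control right), as the difference from the mean of the 8 fish of that gene. Whole Egg-1 and Control-2 are positive and Whole Egg-4 is negative in fasn, acaca, scd and srebf1 and in every gene below the line, and acacb, the weak acly identifier and mlxipl show no such pattern.

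Markers of other tissues in the dissected livers were set beside the high fish. In Control-2, 10 markers of exocrine pancreas summed to 1739 CPM and 13 of intestine to 511 CPM, the highest of all fish. In Whole Egg-1 they summed to 143 CPM, the lowest of all fish, and 230 CPM, and without apoa4b.1 the intestine markers summed to 10.8 CPM in Whole Egg-1 and 246 CPM in Control-2. Over the other fish, pancreas markers ranged between 284 and 1301 CPM in Whole Egg and 316 and 1131 CPM in Control, and intestine markers between 77.6 and 242 CPM in Whole Egg and 141 and 217 CPM in Control. The liver markers summed to 33934 CPM in Whole Egg-1 and 43610 CPM in Control-2. Ovary markers summed to 7.13 CPM in Whole Egg-1, the lowest of all fish, and 72.1 CPM in Control-2, the highest of the Control fish. Depth was 21934962 counts in Whole Egg-1 and 19058411 in Control-2. The part of any other tissue in the levels of these genes was not tested.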

How the data were processed

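Whole liver RNA of 4 Whole Egg and 4 Control females was sequenced on ribosome-depleted, strand-specific libraries with single-end reads. The authors trimmed reads with Trimmomatic 0.36 and used STAR 2.5.2b for alignment against GRCz11, and the deposited files hold raw counts per Ensembl gene, without normalization or filter. Counts of the reverse strand were used, which held 97.9% of the counts of both strands. Reads that aligned to several places (33.95% to 37.93%) or to no gene (7.86% to 14.06%) carry no gene and were left out. Totals per fish were 16916307 to 35871236 counts.

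Symbols came from the study's supplement and a table of gene names (29230 of 32520 identifiers). The members and lists were chosen with earlier results of these data known. Of the listed symbols a few had no match and were dropped, among them fads2, the only desaturase in the pathway lists. Genes passed filterByExpr with a minimum count of 10, and Whole Egg was compared with Control in edgeR 4.0.16 (R 4.3.3, TMM, quasi-likelihood test, Benjamini-Hochberg over 13379 genes, adjusted p under 0.1). Standard errors are the log2 fold change divided by the root of F. log2 CPM had a prior count of 2. Single genes were also compared by exact permutation over 70 arrangements, and correlations over 40320 pairings. Named were all members, list genes with an unadjusted p under 0.05 or else the smallest p, and the 5 genes of highest and 3 of lowest r with fasn at a mean of at least 10 CPM. A gene that this rule names is not reported here. Body metrics and PCR measurements are not analysed here.

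Alternatives were DESeq2 1.42.0, RLE and upper quartile scaling, other filters, unstranded counts, the fish number as a block, each fish left out, and the study's sets of 6 fish. The correlation without the 2 fish farthest from the median of fasn and the intestine markers without apoa4b.1 were added after seeing the data. Same-numbered fish of the diets are different fish, and the labels do not say what the numbers stand for, so the numbers were not taken as pairs. The correlations of their deviations from the diet mean were 0.198, 0.352, 0.0787 and 0.451 for the numbers 1 to 4. Between fish of different numbers they ran from −0.453 to 0.240. On simulated counts for these 8 fish, with a log2 fold change of 2 set in 200 of 13379 genes, edgeR recovered 54.5% (13 unchanged genes called) and DESeq2 78.5% (63 unchanged genes called). Genes were drawn independently there, so no fish stood apart in many genes at once, as fish do in these data. The changed genes were picked at random, so the recovery does not describe genes as variable as fasn or scd.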

Additional observations from a re-analysis of the deposited data

Results flagged for a closer look

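Within a diet, the gap in CPM of a fish to the nearest other fish was divided by the range of the 4 fish. A fish was singled out when this ratio exceeded Dixon's critical value. For independent, normally distributed values chance gives such a fish in about 1 in 20 groups. Here CPM of several genes were skewed, several genes varied together across the same fish, and some were named for an unadjusted p under 0.05 in edgeR. The count of groups therefore has no such chance rate to be set against. Of 30 groups examined (15 genes in each diet), 8 held such a fish. They were Whole Egg-1 in fasn (1681 CPM), scd (286 CPM) and gck (216 CPM), Control-2 in fasn (3422 CPM), acaca (2034 CPM), scd (492 CPM) and elovl6 (12.9 CPM), and Control-3 in dgat1b (10.3 CPM). Control-2 and Whole Egg-1 accounted for 7 of the 8.

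The counts of the opposite strand, which the comparisons did not use, held a few reads of the strongest genes. The highest count in a fish was 83 for fasn, 48 for acaca, 10 for acacb and 9 for scd, and over all fish the opposite strand made up 0.119%, 0.0986%, 0.188% and 0.0722% of the counts of these genes on both strands.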

How the results depend on the processing

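The count of differentially expressed genes (DEGs) at an adjusted p under 0.1 was 0 under every alternative run, and so was the count of fatty acid synthesis genes called. The study did report DEGs without Control-4 and Whole Egg-1, with DESeq2 and after genes with read counts under 30 were excluded. Here that set was run with edgeR and the filter of the main comparison, so the counts of DEGs are not alike. The study's own setting was not run. The number of genes at an unadjusted p under 0.05 was 522, against 861 with DESeq2, 1442 with no filter on low counts, 240 with at least 30 counts in every fish, 281 when Control-2 and Whole Egg-2 were left out and 1005 without Control-4 and Whole Egg-1. With 1 fish left out it ran between 244 and 1374.

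Signs turned in several genes, at adjusted p no lower than 0.550 for these genes. With 1 fish left out, the log2 fold change ran between −2.90 and 2.86 for fasn, −1.14 and 1.45 for acaca, −4.20 and 2.33 for scd, −3.01 and 0.72 for elovl6, −0.74 and 0.16 for the main acly identifier, −0.14 and 0.21 for the weak one, −0.23 and 0.21 for acacb and −0.43 and 0.41 for srebf1. Without Control-2 and Whole Egg-2 it was 3.18 for fasn, 1.64 for acaca, 0.068 for acacb, 0.17 for the main acly identifier, 2.70 for scd and 1.14 for elovl6. Without Control-4 and Whole Egg-1 it was −0.10 for the weak acly identifier and −0.42 for srebf1. Upper quartile scaling gave −0.021 for the weak acly identifier and −0.062 for srebf1, and the filter of 30 counts gave 0.0054 for acacb. The labels do not say what the fish numbers stand for, so the numbers were not used as pairs in the main comparison. Deviations of same-numbered fish were all positively correlated (r of 0.0787 to 0.451), against −0.453 to 0.240 between fish of different numbers. Whether the numbers mark a shared factor was not tested. With the number as a replicate block there were 0 DEGs, 754 genes at an unadjusted p under 0.05 and a log2 fold change of 0.26 for fasn and −0.092 for srebf1. Whole Egg-3 correlated best with Control-4 and Control-3 with Whole Egg-2, and each other fish with its own number. The cause of these turns, beyond the fish left out, was not tested.

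The median r over pairs, 0.25 in 8 fish, lay between 0.14 and 0.41 with 1 fish left out. The r of fasn with the weak acly identifier turned to −0.88, and that with elovl6 to −0.63, without the 2 fish farthest from the median of fasn, and with 1 fish left out that of the weak acly identifier lay between −0.13 and 0.52. That with mlxipl was −0.85 without Control-2, its only value past the threshold (exact permutation, adjusted p = 0.00794). Counts are no limit for fasn (461 or more in every fish), but they are for elovl6, scdb and me1. They were also low in some fish for scd (9 in Whole Egg-4), the weak acly identifier (14 in Control-4) and mlxipl (22 in Whole Egg-1). With at least 30 counts required in every fish, 5 identifiers were tested. With 4 fish per diet, the standard error of fasn, 1.57, was larger than the size of its log2 fold change, −0.83. This standard error comes from the same test, and what size of difference in fasn could be detected was not tested.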

Other observations

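Insulin-induced gene 1, insig1, holds SREBP in the endoplasmic reticulum when sterols are plentiful, and it was chosen for its values after they were seen. It had 31.6, 9.63, 303 and 66.9 CPM in Whole Egg-1 to Whole Egg-4, against 17.6, 50.5, 34.3 and 104 CPM in Control-1 to Control-4. Its highest fish was Whole Egg-3, not one of the fish high in fasn, and its r with fasn was 0.08. The gene srebf2, the SREBP of cholesterol synthesis, had 15.5, 10.1, 34.7 and 16.5 CPM in Whole Egg-1 to Whole Egg-4, against 44.5, 34.2, 13.6 and 30.3 CPM in Control-1 to Control-4, with r = 0.26 with fasn. Neither of them had the highest and lowest fish seen in fasn, acaca, scd and srebf1.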
